A study of Homo sapiens with 9 samples.

Results

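The genes of the core spliceosome and of the SR and hnRNP splicing regulators were followed through knockdown of ASXL2 in SKNO-1 cells. Members were taken by symbol: SRSF followed by a number, and every symbol beginning with HNRNP, SF3A, SF3B, U2AF, SNRNP or PRPF. This gave 73 of the 25680 gene symbols, each represented by the RefSeq row with the highest total. The low-count filter kept 69 of them, among 14199 genes tested. For the SRSF genes all 30 RefSeq rows were also read, isoforms included.

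SKNO-1 is a human acute myeloid leukaemia line that carries the AML1-ETO (RUNX1-RUNX1T1) fusion and, according to the study, wild-type ASXL1 and ASXL2. All 9 libraries came from this line, which the study kept in medium with serum and GM-CSF. Control cells (shControl in the study, labelled EV) were compared with cells given either of 2 shRNAs against ASXL2, labelled SH2 and SH3 and called shASXL2-2 and shASXL2-3 here. Each group held 3 libraries, numbered 1, 13 and 25 in the labels, which do not say what the numbers stand for. The study describes biological triplicates, but the labels name no separate cultures, so the p-values measure the spread between these libraries, which may be technical. Neither the share of cells that carried an shRNA nor the time after its introduction is in the labels.

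Pre-mRNA splicing is carried out by small nuclear ribonucleoproteins (snRNPs) that assemble on each intron. U2AF reads the end of the intron, the SF3A and SF3B complexes hold the U2 snRNP on the branch point, and PRPF8 and SNRNP200 form the centre of the active machine. SR proteins (SRSF) mostly promote the use of exons, whereas hnRNP proteins coat the pre-mRNA and often repress it. In myeloid neoplasms SF3B1, U2AF1 and SRSF2 are known for recurrent mutations. Several SR genes limit their own output by including an exon with an early stop codon, so that the transcript is degraded by nonsense-mediated decay.

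That exon is shown for SRSF3 and SRSF6, because the counts of their 2 RefSeq rows differed by an amount that can be read library by library. GENCODE annotates it in a decay transcript of each gene, at chr6:36567598-36568053 (456 bases) in SRSF3 and chr20:42087793-42088060 (268 bases) in SRSF6, both on the plus strand of GRCh37. The lines give 20 intron bases and the exon from its start to the early stop codon, which is in capitals. They cover chr6:36567578-36567631 and chr20:42087773-42087944.
SRSF3: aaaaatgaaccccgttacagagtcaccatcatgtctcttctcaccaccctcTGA
SRSF6: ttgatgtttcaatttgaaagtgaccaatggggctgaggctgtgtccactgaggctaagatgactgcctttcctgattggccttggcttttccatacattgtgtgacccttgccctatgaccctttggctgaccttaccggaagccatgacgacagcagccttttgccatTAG

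Library totals were 27714431 to 35406063 counts with 1 row per gene, so that a gene with 3 counts stood at 0.0847 to 0.108 CPM (counts scaled to a common effective library size). Myeloid markers were present, with MPO at 6366 to 10240 CPM, whereas CD34 was at 0.0680 to 0.309 CPM. The T cell, epithelial, erythroid and fibroblast markers read were all at or below 0.340 CPM, APOA1 of liver was at 0.277 to 0.904 CPM, and of the megakaryocyte genes ITGA2B was at 55.7 to 144 CPM and PF4 at 0. ASXL2, the target, was 67.9, 67.9 and 74.7 CPM in shControl libraries 1, 13 and 25. It was 30.4, 36.2 and 36.2 CPM in shASXL2-2 and 26.9, 29.0 and 41.1 CPM in shASXL2-3. All 6 knockdown libraries lay below the 3 controls (exact permutation p = 0.0119, two-sided, the smallest that 84 splits allow). Taken over both shRNAs, ASXL2 had a log2 value of -1.08 (SE 0.13, n = 6 against 3) and an edgeR adjusted p of 0.177. In bulk RNA, fewer cells that express a gene and less of its RNA per cell cannot be told apart. With the library number as a block it was -1.09 (SE 0.083) with an adjusted p of 0.00098. Without the block, ASXL2 passed only when the shASXL2-3 library numbered 1 (-1.02, adjusted p = 0.0497) or 25 (-1.18, adjusted p = 0.015) was left out, among the 9 libraries left out in turn.

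The members took 1.98%, 2.11% and 2.12% of the counts in shControl libraries 1, 13 and 25. They took 1.98%, 2.15% and 2.15% in shASXL2-2 and 1.73%, 2.16% and 2.10% in shASXL2-3. The library numbered 1 was thus the lowest in every group, and that of shASXL2-3 the lowest of all.

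Levels are compared between genes per kilobase of the GENCODE canonical transcript, as the mean of the 3 shControl libraries. The lengths of the counted RefSeq rows were not read, so a rank can rest on a mismatched length. Among SR proteins SRSF2 was highest (311 CPM per kb) and SRSF10 lowest (1.54). U2AF1, the small U2AF subunit that reads the AG at the intron end, stood at 201 CPM per kb and its paralogue U2AF1L4 at 10.3. In the SF3 complexes SF3B5 was highest (238) and SF3A2 lowest (34.6). SNRNP70, a U1 snRNP protein, led the SNRNP genes at 140 CPM per kb, and SNRNP48 of the minor spliceosome closed them at 9.37. PRPF19, a ubiquitin ligase of the spliceosome, led the PRPF genes at 99.3 and PRPF40B was last at 2.78. HNRNPA2B1, HNRNPK and HNRNPA1 stood at 414, 336 and 306 CPM per kb.

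Some rows share reads. HNRNPA1P10, a processed pseudogene of HNRNPA1, held 1114 CPM in shControl beside 1147 for its parent and is taken as uncertain. HNRNPUL2 and the readthrough row HNRNPUL2-BSCL2 overlap, as do HNRNPU and HNRNPU-AS1, which unstranded libraries cannot separate. HNRNPCL1 and HNRNPCL2 are near-identical copies with 0.275 to 0.544 CPM in every library. Of the 4 members below the filter, HNRNPLL had 0 to 6 counts per library, HNRNPA1P33 0 to 7, HNRNPA3P1 2 to 8 and HNRNPKP3 0 or 1.

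The first comparison asked whether lowering ASXL2 moved these genes. No member passed an adjusted p of 0.05 in any contrast, where 0% of all genes passed for each shRNA alone, for both averaged and for shASXL2-3 against shASXL2-2. By the edgeR quasi-likelihood test at an unadjusted p under 0.05, 1 of 69 members passed for shASXL2-2, beside 5.37% of all genes. It was 1 of 69 for shASXL2-3 (5.09% of all genes), 2 of 69 for both averaged (6.63%) and 0 of 69 for the difference between the shRNAs (2.06%). With the number as a block the count of members was still 0, where 0.282%, 0.416%, 1.1% and 0.106% of all genes passed in the same order. DESeq2 called 0 members in all 4 contrasts, beside 0.226%, 0.165%, 0.298% and 0.0612% of the genes to which it gave an adjusted p. With the block it called 1 of 67 members for both averaged, SF3B5, beside 4.82% of those genes. Over both shRNAs, the median log2 fold change was 0.017 over the members and 0.012 over all genes.

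The intervals are unadjusted and show the precision of each estimate. They are not the detection limit of the adjusted test, in which ASXL2 at -1.08 did not pass without the block. For both shRNAs averaged, the 95% confidence interval lay within 0.5 on the log2 scale of no change for 64 of 69 members. The widest reached -0.63 for HNRNPCL2 and 0.89 for HNRNPCL1, the genes near the floor. The members spanned -0.19 to 0.25 on the log2 scale. By family, the medians were 0.029 for the SR proteins, 0.0096 for U2AF, 0.049 for SF3, 0.053 for SNRNP, -0.0038 for PRPF and 0.017 for hnRNP.

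**Figure D1:**
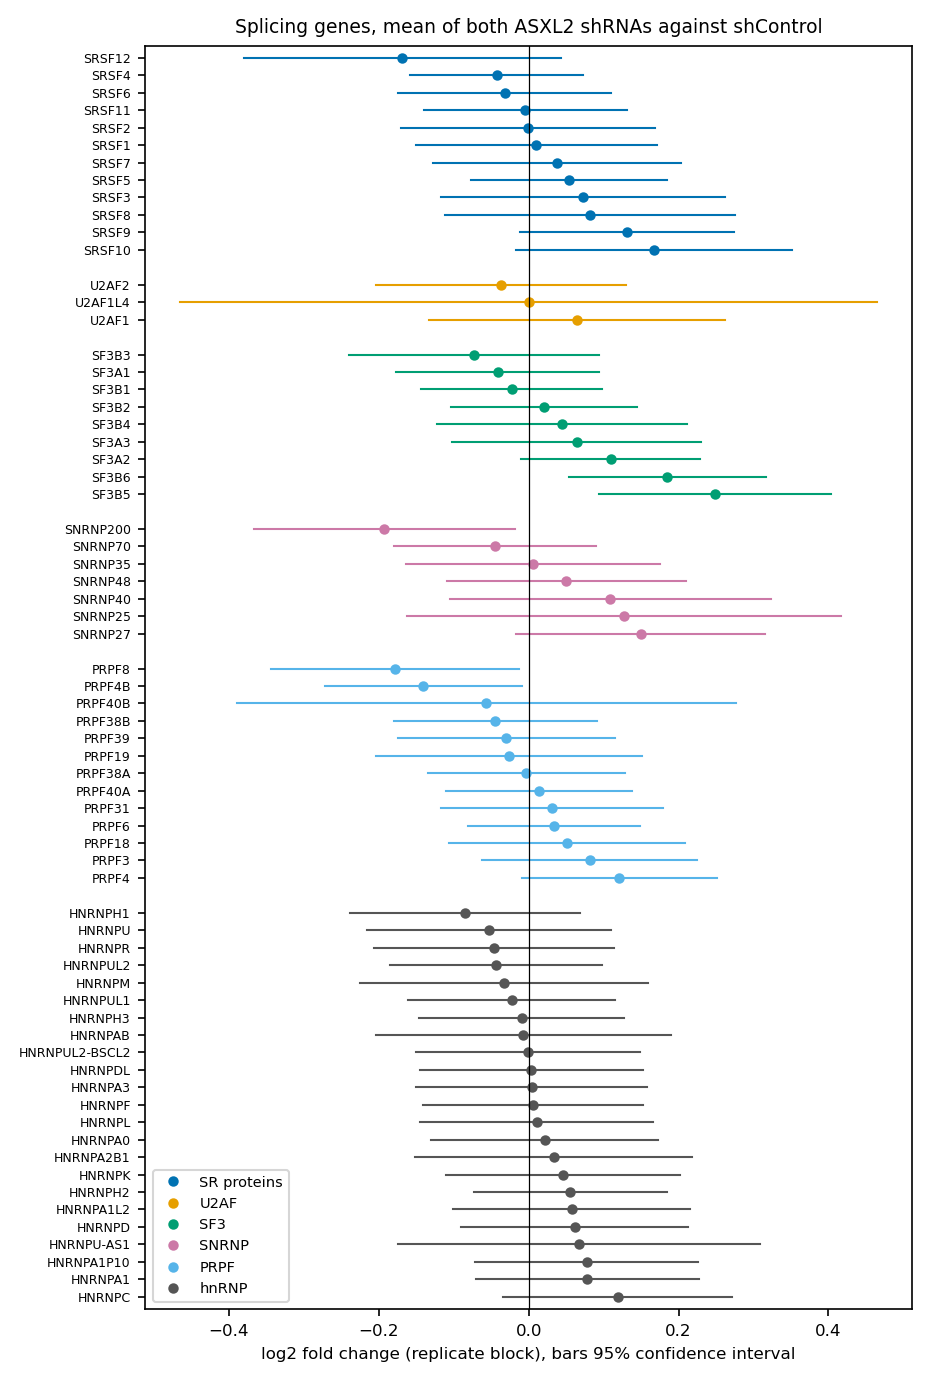
Log2 fold change of 67 of the 69 tested members for the mean of both ASXL2 shRNAs against shControl, from the fit with library number as a block. Points are estimates and bars 95% confidence intervals over 9 libraries, coloured by family, with HNRNPCL1 and HNRNPCL2 left out for their wide intervals. Most intervals cross 0, SF3B5 is highest at 0.25 and SNRNP200 lowest at -0.19, and no member passed the adjusted threshold.

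No SR gene passed for either shRNA. Without the block, their log2 values spanned -0.16 to 0.22 for shASXL2-2 and -0.17 to 0.17 for shASXL2-3. SRSF2, which binds exonic enhancers, was 541, 645 and 576 CPM in shControl libraries 1, 13 and 25. It was 560.4, 642 and 646 CPM in shASXL2-2 and 442, 647 and 606 CPM in shASXL2-3. The groups overlapped, and the log2 value with the block was -0.00064 (95% interval -0.17 to 0.17). SRSF1, the founding member of the family, was 436, 455 and 490.3 CPM in shControl, 452, 474 and 515 CPM in shASXL2-2 and 366, 486 and 499.6 CPM in shASXL2-3. In each group its library numbered 1 was the lowest. Its log2 fold change was 0.010 with the block (95% interval -0.15 to 0.17). Of the 12 SR genes, SRSF10 had the highest value (log2 0.17 with the block, interval -0.017 to 0.35) and SRSF12 the lowest (-0.17, interval -0.38 to 0.044), and neither passed.

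The smallest p values among the members for both shRNAs were those of SF3B5 and SF3B6, and neither passed. SF3B5, a small subunit of SF3B encoded at chromosome 6, 144416021 to 144416710 (minus strand), was 148, 165 and 179 CPM in shControl. It was 196, 187 and 207 CPM in shASXL2-2 and 166, 209.8 and 202 CPM in shASXL2-3. Every knockdown library was above the control of its own number, while the groups overlapped. Its log2 fold change was 0.25 (SE 0.10, edgeR adjusted p = 0.742), and with the block 0.25 (SE 0.070, adjusted p = 0.0973). SF3B6, which lies at the branch point adenosine, was 105, 116 and 126 CPM in shControl, 126, 123 and 137 CPM in shASXL2-2 and 133, 132 and 135 CPM in shASXL2-3. Its value was 0.18 (SE 0.080, adjusted p = 0.744). SF3B1, the largest SF3B subunit, was 240 to 269 CPM in shControl and 232 to 266 CPM in the knockdown libraries, with a value of -0.023 (block interval -0.14 to 0.098).

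Among members with a negative value, SNRNP200, PRPF8 and PRPF4B had the smallest p values in the fit with the block, and none passed. SNRNP200, the helicase that unwinds U4 from U6, was 495, 501 and 552 CPM in shControl, 425, 489 and 448 CPM in shASXL2-2 and 377, 449.5 and 527 CPM in shASXL2-3. Its log2 fold change was -0.19 (SE 0.11, adjusted p = 0.858). PRPF8, the scaffold of the active site, was 375, 417 and 443 CPM in shControl, 325, 405 and 384 CPM in shASXL2-2 and 281, 375 and 427 CPM in shASXL2-3, a value of -0.17 (SE 0.14, adjusted p = 0.906). In both genes each knockdown library lay below the control of its number, yet the groups overlapped. PRPF4B, a kinase of the U4/U6.U5 particle, was the 1 member whose 6 knockdown libraries (164 to 172 CPM) all lay below its 3 controls (179, 179 and 202 CPM). Its value was -0.14 (SE 0.070, adjusted p = 0.798). Among all genes 2.61% lay below in this way and 2.16% above, where no member did.

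All 6 same-number differences were above 0 for 5 of 69 members (SF3B5, SF3B6, HNRNPC, PRPF4 and SRSF9), beside 11.6% of all genes. They were below 0 for 3 of 69 (SNRNP200, PRPF8 and PRPF4B), beside 11.6% of all genes. The pairs of a number share their control library. Transcript length moved with this contrast: the canonical transcripts of SF3B5 and SF3B6 are 690 and 651 nt and those of SNRNP200 and PRPF8 7194 and 7280 nt. Over 68 members Spearman's rho between length and log2 fold change was -0.51, and over 12338 genes -0.41. These points share their libraries. With a length and GC offset beside the block, the values were 0.18 for SF3B5, 0.062 for SF3B6, -0.062 for SNRNP200, -0.045 for PRPF8 and -0.069 for PRPF4B. They were 0.23 for SRSF10, 0.11 for PRPF4 and -0.20 for SRSF12, and none of these 8 members passed.

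The shRNAs were also compared with each other. The member with the smallest p without the block was SRSF8, a retrotransposed copy of SRSF2 (log2 0.19 for shASXL2-3 against shASXL2-2, SE 0.13, adjusted p = 0.998). With the block it was SRSF5 (0.17, SE 0.068, adjusted p = 0.375), followed by HNRNPAB (-0.24, SE 0.10, adjusted p = 0.390). For HNRNPAB, SF3B4 and HNRNPM the sign rested on the shASXL2-3 library numbered 1: without it the values without the block, -0.20, -0.16 and -0.15, became 0.049, 0.019 and 0.049.

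The library number was the larger axis. In the fit of group and number, number 1 differed from numbers 13 and 25 for 33 of 69 members (47.8%), beside 46.3% of all genes, so the share that passed was close to the background. The direction was uneven. The value was lower in number 1 for 29 of 69 members (42%), beside 22.2% of all genes, and higher for 4 (5.8%), beside 24.1%. The median log2 difference was -0.15 over the members and 0.0074 over all genes. Without the shASXL2-3 library numbered 1 there were 25 members, 22 of them lower, beside 33.7% of all genes, with 16.3% lower. Without all 3 shASXL2-3 libraries there were 21, 20 of them lower, beside 36.2% of all genes, with 17.7% lower. With a length and GC offset there were 44 of 68, 42 of them lower, beside 52.7% of 12338 genes, with 32% lower. With each of the 9 libraries left out in turn, 21 of the 33 passed every time, a count that was not made over all genes. The 12 that did not were SRSF1, SRSF3, SNRNP48, PRPF3, PRPF4, PRPF18, HNRNPA1, HNRNPA1P10, HNRNPR, HNRNPU and both HNRNPUL2 rows. Number 25 against number 13 called 0 of 69 members, where 5.87% of all genes passed. At an unadjusted p under 0.05 that contrast held 8 of 69, beside 23.8% of all genes. The contrast was added after the first results were seen.

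The 3 libraries numbered 1 lay below the other 6 for 24 of 69 members (34.8%), beside 12.1% of all genes. They lay above them for 3 (4.35%), beside 14.4%. What separates number 1 from the others cannot be told apart from the number itself, because the labels give no further description.

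**Figure D2:**
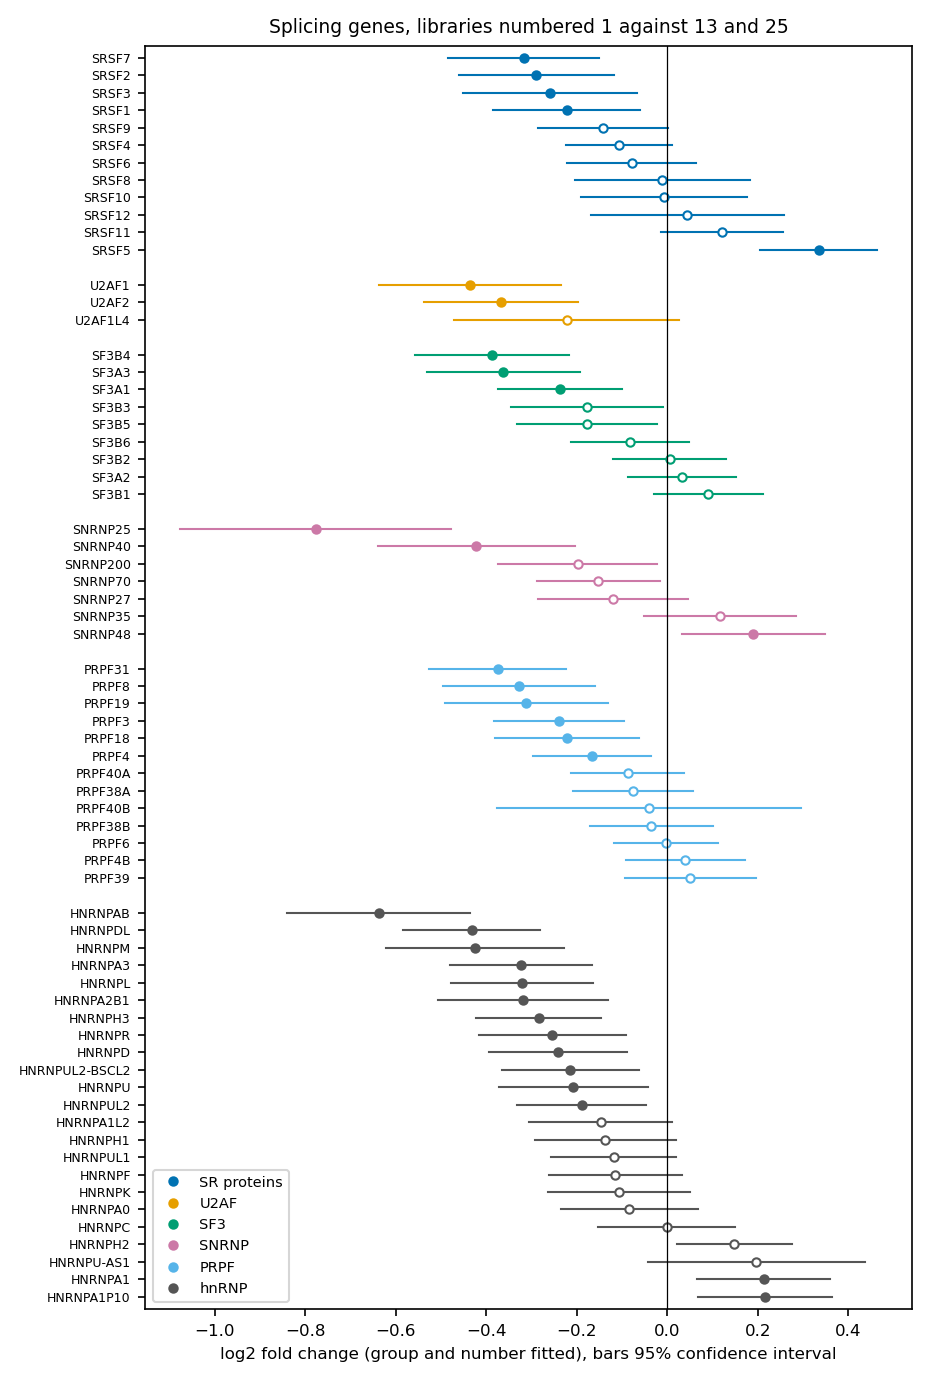
Log2 fold change of 67 of the 69 tested members for libraries numbered 1 against those numbered 13 and 25, with group fitted. Bars are 95% confidence intervals over 9 libraries, filled points passed an adjusted p of 0.05 and open points did not, and HNRNPCL1 and HNRNPCL2 are left out. Filled points stand mainly left of 0, with SNRNP25 at -0.78 and HNRNPAB at -0.64, while SRSF5, HNRNPA1, HNRNPA1P10 and SNRNP48 are filled on the right.

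Among the recognition factors, both subunits of U2AF fell in number 1, where 22.2% of all genes were lower and 24.1% higher. U2AF1, on chromosome 21 at 44513066 to 44527680 (minus strand), was 161, 195 and 212 CPM in shControl libraries 1, 13 and 25. It was 186, 210.5 and 224 CPM in shASXL2-2 and 131, 224 and 221 CPM in shASXL2-3. The number 1 library was lowest in all 3 groups and below the other 6 throughout. The log2 difference was -0.44 (SE 0.091, adjusted p = 0.00371), and -0.29 without the shASXL2-3 library numbered 1. U2AF2, the large subunit that binds the polypyrimidine tract, was 316, 367 and 391 CPM in shControl, 322, 366 and 396 CPM in shASXL2-2 and 253, 366 and 406 CPM in shASXL2-3, a log2 difference of -0.37 (SE 0.077, adjusted p = 0.00385). U2AF1L4 had a value of -0.22 and did not pass.

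In the SF3 complexes 3 of 9 members fell and none rose, beside 22.2% of all genes lower and 24.1% higher. They were SF3B4 (log2 -0.39, SE 0.077, adjusted p = 0.00305), SF3A3 (-0.36, SE 0.076, adjusted p = 0.00392) and SF3A1 (-0.24, SE 0.062, adjusted p = 0.0108). SF3B4, which contacts the pre-mRNA near the branch point, was 89.3, 112 and 113 CPM in shControl, 104, 119.6 and 120.3 CPM in shASXL2-2 and 75.2, 121 and 112 CPM in shASXL2-3. SF3B1 had a value of 0.090 with a 95% interval of -0.030 to 0.21.

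Of the SNRNP genes 2 of 7 fell and 1 rose, beside 22.2% of all genes lower and 24.1% higher. SNRNP25, a protein of the minor-spliceosome U11/U12 particle on chromosome 16 at 103828 to 107669, had the largest value of any member. It was 16.5, 20.2 and 28.8 CPM in shControl, 18.9, 25.3 and 29.7 CPM in shASXL2-2 and 12.0, 28.1 and 31.1 CPM in shASXL2-3. The log2 difference was -0.78 (SE 0.14, adjusted p = 0.00171). SNRNP40, a U5 protein, fell by 0.42 (SE 0.098, adjusted p = 0.00629), and by 0.27 without the shASXL2-3 library numbered 1. SNRNP48, another U11/U12 protein, rose by 0.19 (SE 0.071, adjusted p = 0.0495). Its call was lost without any 1 of 8 libraries, with a value of 0.085 without the shASXL2-3 library numbered 1.

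Of the PRPF genes 6 of 13 fell and none rose, beside 22.2% of all genes lower and 24.1% higher. PRPF31, which joins U4/U6 to U5 and is known from inherited retinal disease, was 69.3, 80.2 and 95.1 CPM in shControl. It was 75.0, 83.6 and 93.6 CPM in shASXL2-2 and 62.8, 89.1 and 95.9 CPM in shASXL2-3. Its log2 difference was -0.37 (SE 0.068, adjusted p = 0.00208). The others were PRPF8 (-0.33), PRPF19 (-0.31), PRPF3 (-0.24), PRPF18 (-0.22) and PRPF4 (-0.17). Without the shASXL2-3 library numbered 1, PRPF19 was -0.19 and passed, and PRPF3 was -0.15 and did not.

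Of the 12 SR genes, SRSF1, SRSF2, SRSF3 and SRSF7 fell, with log2 differences of -0.22, -0.29, -0.26 and -0.32 and adjusted p of 0.0302, 0.0122, 0.0316 and 0.00694. Among all genes 22.2% were lower and 24.1% higher. Without the shASXL2-3 library numbered 1, SRSF1 (-0.12) and SRSF3 (-0.13) no longer passed, while SRSF2 (-0.19) and SRSF7 (-0.20) did. SRSF5 went the other way. It was 270.4, 225 and 223 CPM in shControl, 268, 213 and 223 CPM in shASXL2-2 and 320.2, 229 and 246 CPM in shASXL2-3. All 3 libraries numbered 1 lay above the other 6, with a log2 difference of 0.33 (SE 0.058, adjusted p = 0.0017).

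Of 25 tested hnRNP rows 12 fell and 2 rose, beside 22.2% of all genes lower and 24.1% higher. The rows that rose, HNRNPA1 and its pseudogene, share reads. HNRNPAB, an A/B-type RNA-binding protein on chromosome 5 at 177631534 to 177638164, was 269, 383 and 433 CPM in shControl, 319, 398 and 442 CPM in shASXL2-2 and 209, 390.1 and 412 CPM in shASXL2-3. Number 1 was lowest in each group, with a log2 difference of -0.64 (SE 0.092, adjusted p = 0.000745). HNRNPDL fell by 0.43 (SE 0.068, adjusted p = 0.00111) and HNRNPM by 0.43 (SE 0.089, adjusted p = 0.00379). HNRNPA3, HNRNPL, HNRNPA2B1, HNRNPH3, HNRNPR, HNRNPD, HNRNPU and both HNRNPUL2 rows fell by 0.19 to 0.32. Without the shASXL2-3 library numbered 1, HNRNPR (-0.15), HNRNPU (-0.13), HNRNPUL2 (-0.12) and HNRNPUL2-BSCL2 (-0.13) did not pass. HNRNPA1, at 1213, 1157 and 1070.3 CPM in shControl, was the only parent gene of the family to rise past the threshold (log2 0.21, SE 0.067, adjusted p = 0.024). Its call was lost without any 1 of 5 libraries (adjusted p up to 0.0791) and with a length and GC offset, where HNRNPA1 in number 1 versus numbers 13 and 25 had a value of 0.15 (adjusted p = 0.0602). HNRNPC and HNRNPK did not pass, with values of -0.0014 (95% interval -0.15 to 0.15) and -0.11 (-0.26 to 0.050).

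**Figure D3:**
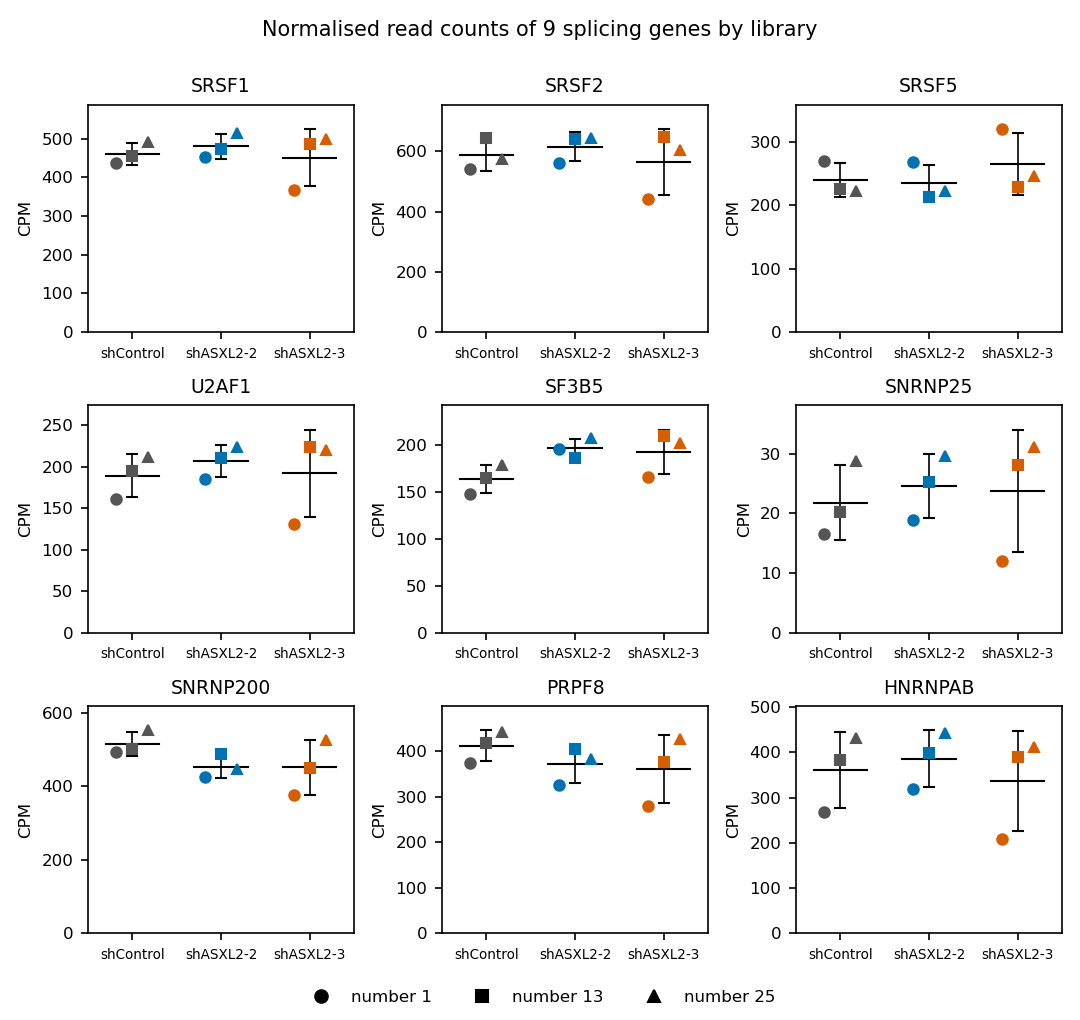
Normalised read counts (CPM, linear axis from 0) of 9 members in each library, with circles for number 1, squares for 13 and triangles for 25, and the mean and SD of each group of 3 as black lines. The circle is lowest in every group for SRSF1, SRSF2, U2AF1, SNRNP25, PRPF8 and HNRNPAB and highest in every group for SRSF5, whereas the groups overlap in each panel.

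The number 1 difference varied in size between the groups, each of which holds 1 library numbered 1. The median over 69 members of log2 CPM in number 1 minus the mean of 13 and 25 was -0.14 in shControl, -0.088 in shASXL2-2 and -0.25 in shASXL2-3. The shASXL2-3 group had the largest difference in size for 56 of 69 members, shControl for 8 and shASXL2-2 for 5. No such count was made over all genes, so this is not read as a trait of the members. Median absolute differences were 0.17, 0.13 and 0.28 over the members and 0.19, 0.18 and 0.32 over all genes, so their sizes had the same order. The signed medians over all genes were -0.0018, 0.0039 and 0.0089. An interaction between number 1 and shASXL2-3, added after seeing the data, called no member and no gene by edgeR, with 3 residual degrees of freedom. At an unadjusted p under 0.05 it held 16 of 69 members, 14 of them lower in shASXL2-3, and 10.9% of all genes, whose direction was not counted. The smallest p among members was that of PRPF40B, whose number 1 differences were -0.19, -0.46 and 0.50.

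**Figure D4:**
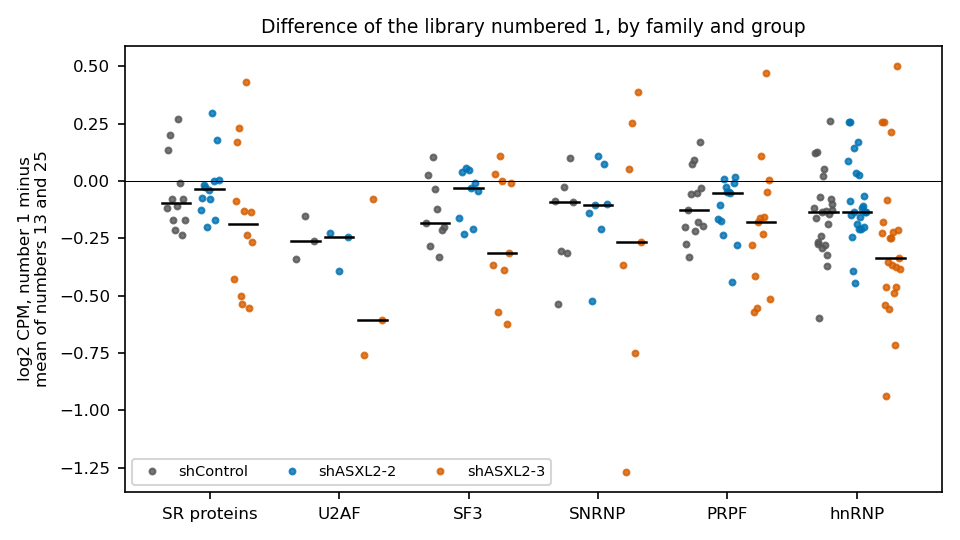
Difference in log2 CPM between the library numbered 1 and the mean of numbers 13 and 25, for each member (points) by family and group, with medians as black lines and HNRNPCL1 and HNRNPCL2 left out. The shASXL2-3 points spread furthest, down to -1.27 for SNRNP25 and -0.94 for HNRNPAB, and medians are below 0 in all families and groups.

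Other splicing genes were read from a list of 121, of which 119 were tested. For both shRNAs averaged none passed, with and without the block, beside 1.1% and 0% of all genes. Their median log2 fold change was 0.028 without the block. The most extreme list medians were 0.18 over the 12 Sm and snRNP proteins, 0.18 over 6 LSM proteins and -0.10 over 8 genes of nonsense-mediated decay. Medians of the remaining lists ran from -0.032 (other regulators) to 0.099 (minor spliceosome). These medians were not adjusted for transcript length, which moved with this contrast. In number 1, 52.9% of the 119 passed, beside 46.3% of all genes. There were 47 lower and 16 higher, where 22.2% of all genes were lower and 24.1% higher. The Sm and snRNP proteins had 5 lower and 1 higher of 12, the helicases and catalytic factors 14 lower and 3 higher of 31, and the exon junction complex 4 lower of 5. The SR-related proteins and SR kinases had 3 lower and 5 higher of 18. Those that rose included CLK1 and CLK4, kinases that phosphorylate SR proteins (log2 0.84, SE 0.087, adjusted p = 0.000205, and 0.59, SE 0.084, adjusted p = 0.000712). CLK1 was 58.0, 43.2 and 29.2 CPM in shControl, 53.4, 39.7 and 29.2 CPM in shASXL2-2 and 78.7, 41.5 and 30.2 CPM in shASXL2-3. Number 1 was highest in all 3 groups. LUC7L3, a U1-associated protein, rose by 0.59, MBNL2, a regulator of alternative exons, by 0.87, and the spliceosome components SLU7 and SYF2 by 0.33 and 0.41. The decay factor SMG5 fell by 0.52, LSM4 by 0.50 and PUF60, which acts with U2AF, by 0.45.

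The isoform rows of the SRSF genes were tested as log2 ratios to the main row. Of 17 rows that differed from it, none passed for both shRNAs averaged by limma, where 3 of 13753 rows of all genes did (0.0218%). At an unadjusted p under 0.05 there were 0 SRSF rows, beside 7.38% of all rows. None passed for number 1, where 0.364% of all rows did. At an unadjusted p under 0.05 there were 4 of 17 SRSF rows, beside 12.5% of all rows. For rows that never exceeded the main row, the main row's count minus the row's count was tested with the main row as offset. This net difference is called exclusive reads here, although whether the rows are nested was not checked. This test was added after the ratios were seen. Both this test and the ratios hold several SRSF10 rows with similar counts, so the SRSF rows are not independent. For both averaged 0 of 10 SRSF rows passed, beside 0% of 4128 rows. The smallest p was that of SRSF6 (log2 -0.20, 95% interval -0.37 to -0.031, adjusted p = 0.184).

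For SRSF3 the exclusive reads are the count of the non-coding row NR_036610 minus that of the coding row NM_003017. They numbered 317, 335 and 219 in shControl libraries 1, 13 and 25, or 2.19%, 2.45% and 1.59% of the row. There were 259, 317 and 158 in shASXL2-2 (1.82%, 2.003% and 1.13%) and 313, 335 and 208 in shASXL2-3 (3.11%, 1.996% and 1.59%). Number 25 was lowest in every group. For SRSF6 the exclusive reads of NR_034009 were 514, 356 and 260.0 in shControl (5.02%, 4.37% and 3.01%). They were 311, 364 and 217 in shASXL2-2 (3.64%, 4.19% and 2.51%) and 286, 376 and 234 in shASXL2-3 (4.07%, 4.25% and 2.94%), again lowest in number 25. The exon whose start is printed above belongs to GENCODE transcripts. The exons of the RefSeq rows were not read here, so exclusive reads need not all fall in it. Number 25 against 1 and 13, chosen because of this pattern, gave a log2 value of -0.60 for SRSF6 (adjusted p = 0.0532) and -0.64 for SRSF3 (adjusted p = 0.083), where 0.145% of rows passed and no SRSF row did.

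In number 1 against 13 and 25, 8.09% of rows passed by exclusive reads and 1 of 10 SRSF rows did. It was SRSF1, where the exclusive reads of the main row against NR_034041 fell by 0.22 (SE 0.050, adjusted p = 0.0454). They made 18.2%, 20.4% and 21.3% of the main row in shControl, 19.9%, 21.0% and 21.5% in shASXL2-2 and 16.2%, 21.4% and 20.6% in shASXL2-3. For SRSF2 the exclusive reads against NR_036608 made 8.18%, 6.29% and 5.61% in shControl and 6.30%, 6.36% and 6.0001% in shASXL2-2. In shASXL2-3 they made 8.96%, 6.73% and 5.11%. Number 1 was highest in shControl and shASXL2-3 but not in shASXL2-2, and the SRSF2 rows did not pass.

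**Figure D5:**
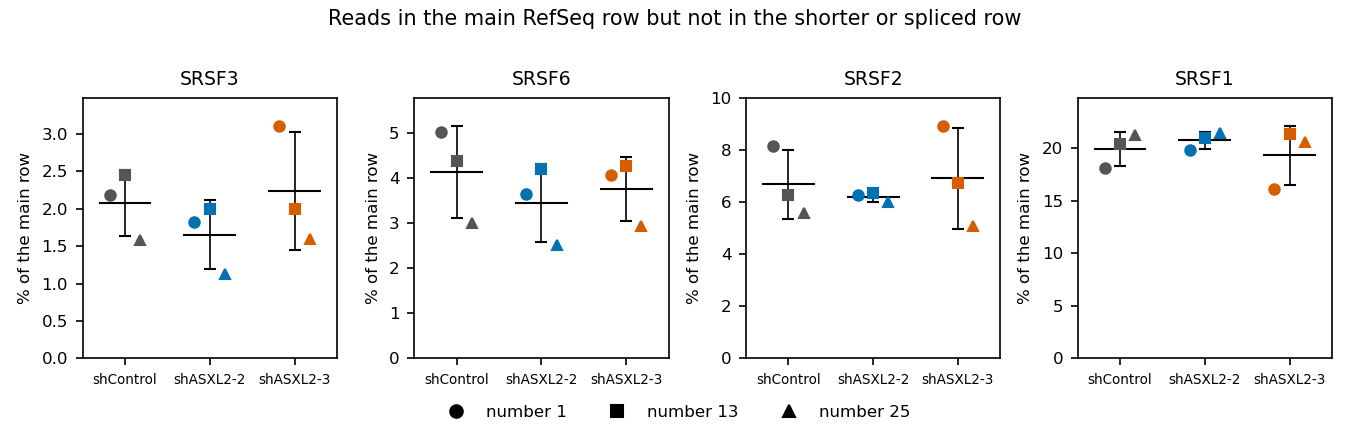
Count of the main RefSeq row minus that of another row of the same gene, as a percentage of the main row, by library (circles number 1, squares 13, triangles 25). Group means and SDs are in black. Number 25 is lowest in each group for SRSF3 and SRSF6, and number 1 is lowest in each group for SRSF1.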

How the data were processed

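Poly(A)-selected, unstranded RNA libraries of 9 SKNO-1 samples were analysed; the extraction text in the labels describes sorted bone marrow cells and was not taken as the source. The deposited files hold whole-number read counts per RefSeq row on hg19, which the authors did not normalise; the submitters' processing notes name STAR and featureCounts, without versions. A read shared by rows is counted in each, so each symbol was represented by its row with the highest total. Counts were tested with edgeR 4.0.16 (quasi-likelihood, TMM, filterByExpr with a minimum count of 10 and total of 15) in R 4.3.3, with Benjamini-Hochberg adjustment over all genes and a threshold of 0.05. One coefficient per group left 6 residual degrees of freedom. Adding the number as a block, the alternative fit, left 4. Libraries of the same number in different groups deviated together (mean correlation 0.663, lowest 0.470 of 9 pairs), so the numbers pair the libraries. The number contrast used the fit of group and number. Isoform ratios used limma 3.58.1 (pseudocount 1, row mean of at least 50 counts) and DESeq2 1.42.0 was an alternative. Lengths came from GENCODE (12338 genes, 86.9% of those tested, and 68 members). Fits were tested on simulated data. The floor of 3 counts covers counting error only. The members, lists and named genes were chosen with earlier results of these data known. Genes were named by rule: all SRSF genes, a set of core factors, members past the threshold (at most 10 by p), the 3 smallest p each way, the highest and lowest of each family, and at most 10 other splicing genes past the threshold. Members past the threshold beyond the first 10 were named after their values were seen.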

Additional observations from a re-analysis of the deposited data

How the results depend on the processing

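The count of members past the threshold for the shRNA contrasts was 0 under every alternative but 2: DESeq2 with the replicate block called 1 for both shRNAs averaged (SF3B5, log2 0.25, adjusted p = 0.033), beside 4.82% of all genes, and the replicate block without number 1 called 1 for shASXL2-3 against shASXL2-2 (PRPF40B, -0.55, adjusted p = 0.0483), beside 0.916%. The block changed no other call of a member. ASXL2 passed with the replicate block (-1.09), with the block and a length and GC offset (-0.89), by DESeq2 (-1.07), by DESeq2 with the block (-1.09) and with the block without number 1 (-1.004); leaving out 1 library gave -1.18 to -1.02 and leaving out number 1 gave -1.001, adjusted p = 0.347. The number 1 count of 33 (46.3% of all genes) was 24 to 37 when 1 library was left out (33.7% to 43.8% of all genes), 44 with a length and GC offset (52.7%), 29 for number alone (36.6%) and 21 without the 3 shASXL2-3 libraries (36.2%). For the SRSF rows in number 1, exclusive reads called 1, beside 8.09% of all rows tested. EdgeR on the row counts called 12, which follow the genes, of which 46.3% passed at the gene level. Several SRSF rows have the same or similar counts, so the 12 are not independent and are not read as a result on isoforms. Over 1282 recomputed gene values 3 reversed, all without the shASXL2-3 library numbered 1 and all for the difference between the shRNAs: HNRNPAB (0.049), SF3B4 (0.019) and HNRNPM (0.049), with leave-one-out values of -0.37 to 0.049, -0.29 to 0.019 and -0.275 to 0.049. Another 80 no longer passed and 2 newly passed. Depth limits the exclusive reads of SRSF3 and SRSF6, at 158 to 514 per library, and HNRNPCL1 and HNRNPCL2. With 3 libraries per group, the unadjusted intervals give the precision of each estimate. The smallest change that the adjusted test can detect was not worked out and can lie outside them.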
